A study of Mus musculus with 10 samples.

Results

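The potassium channel genes described here were all gene names in the deposited tables that consist of Kcn, further letters and a number, together with Abcc8 and Abcc9, which encode regulatory subunits of ATP-sensitive potassium channels. The rule found 94 of the 47643 genes listed, and 30 of them had enough reads to be tested. They were followed in 10 RNA-seq libraries made from mesenchymal cells, which were purified by flow cytometry from Peyer's patches, the lymphoid follicles of the small intestinal wall, of wild-type C57BL/6 mice. All sorted cells were negative for CD45, EpCAM1, TER119 and CD31 and positive for podoplanin. The 5 MCi libraries came from cells without the adhesion molecule MAdCAM1 on their surface, and the 5 MRC libraries from cells that carried it. The labels name no treatment, transgene or animal age, and do not tie libraries to animals. The p-values therefore reflect the variation among these 10 libraries, part of which may be technical.

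Potassium channels let potassium ions pass the cell membrane along their gradient, mostly outward, and so set the resting membrane potential and end electrical activity. Inward rectifiers and leak channels act at rest, voltage-gated channels open on depolarisation, and calcium-activated channels open when calcium rises in the cell. In blood vessels and gut muscle these channels oppose contraction, since a more negative membrane keeps voltage-gated calcium channels shut. The ATP-sensitive channel of pericytes and smooth muscle joins a pore subunit encoded by Kcnj8 to a sulphonylurea receptor encoded by Abcc9, and it opens when ATP falls or vasodilators act.

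Libraries held 3941032 to 8738115 exon reads, and those numbered 4 and 5 in both groups (6142562 to 8738115) were deeper than those numbered 1 to 3 (3941032 to 4761017). Levels are given as CPM, exon reads scaled to a common library total with TMM factors. Before that scaling, 3 reads were worth between 0.343 and 0.761 CPM, depending on the library. Madcam1 ranged over 0 to 2.38 CPM across MCi and measured 30.4 to 86.1 CPM in MRC. The fibroblast gene Pdgfra ranged over 1161 to 2357 CPM across MCi and measured 269 to 934 CPM in MRC, so a mesenchymal marker was present in every library, while Pecam1 (CD31) was at 0 to 2.40 CPM. MRC4 and MRC5 stood apart from the other libraries. The summed level of 15 intestinal epithelium markers was 29135 and 38029 CPM in these libraries, 4561 CPM in MRC3, 12.4 and 360 CPM in MRC1 and MRC2, and 18.9 to 1400 CPM in MCi. Mitochondrial genes held 6.66% and 4.28% of their exon reads, and 0.706% to 1.58% elsewhere. Results below are therefore also given without MRC4 and MRC5 where these libraries bear on them. In sorted bulk samples, fewer cells of a type and less RNA per cell cannot be told apart.

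Of the 30 potassium channel genes tested, 2 were higher in MCi, 0 were higher in MRC and 28 did not pass (edgeR quasi-likelihood test, Benjamini-Hochberg adjusted p under 0.05 over 12127 genes). The genes that passed were Kcnj8, a pore subunit, and Kcnab1, a beta subunit of voltage-gated channels. Kcnab1 had 2 to 27 reads in the MRC libraries and met the read filter only through MCi, where it is high. Over all genes tested, 0.363% were called higher in MCi and 0.0742% higher in MRC. At an unadjusted p under 0.05, 8 members were higher in MCi and 1 in MRC, where 6.09% and 10.6% of all genes were. DESeq2 called 7 members higher in MCi (Abcc9, Kcna1, Kcna2, Kcna6, Kcnab1, Kcnj8 and Kcnk3) and 1 higher in MRC (Kcnk5), against 2.48% and 4.54% of all genes. The fitted change was below 0, toward MCi, for 24 of 30 members, with a median log2 fold change (MRC minus MCi) of -0.74. Over all genes tested 49.0% of changes were below 0 and the median was 0.01. Without MRC4 and MRC5 the median of these 30 members was -0.56, and 23 of them were below 0. There 4 members were higher in MCi (Abcc9, Kcnab1, Kcnj8 and Kcnmb1) and 0 in MRC, where 0.653% and 0.379% of all genes were.

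**Figure D1:**
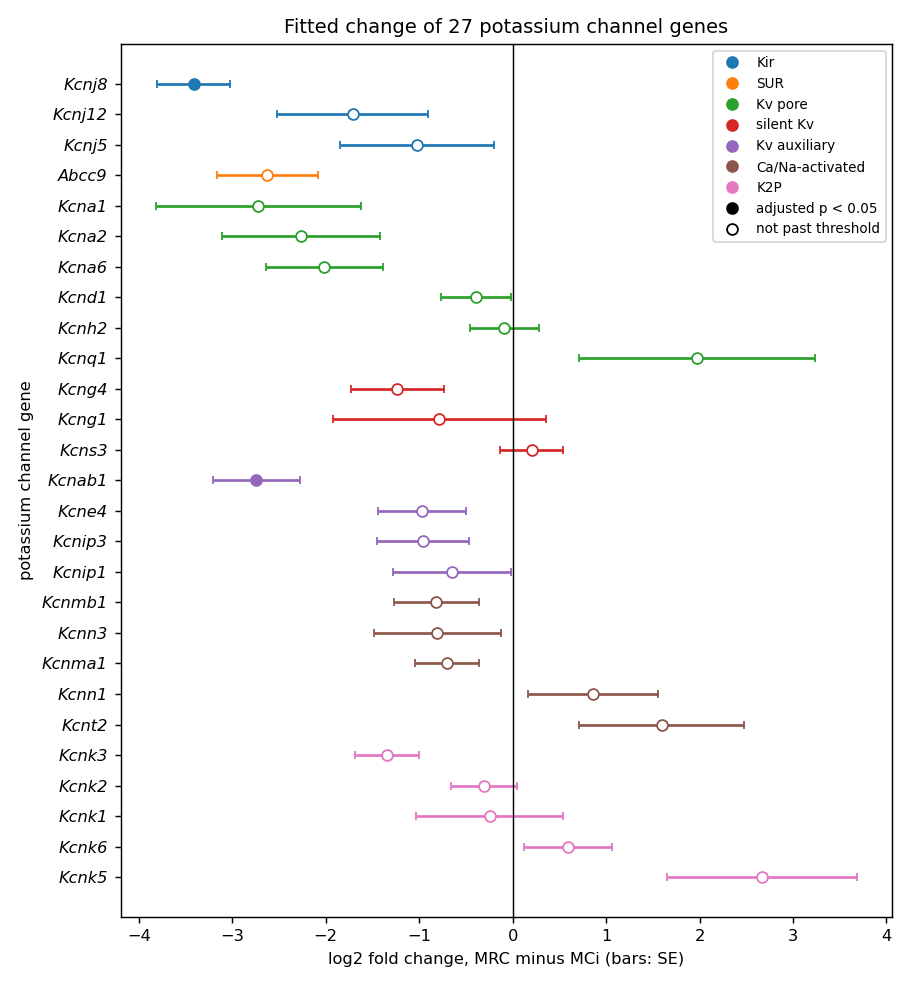
Fitted log2 fold change (MRC minus MCi, horizontal axis, bars show the SE) of 27 of the potassium channel genes with enough reads, coloured by family. Filled points, Kcnj8 and Kcnab1, passed the adjusted threshold, and 21 of 27 points lie below 0.

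The reads of all 94 genes together made up 1278, 1047, 1514, 897 and 863 CPM in MCi 1 to 5 and 497, 595, 563, 592 and 498 CPM in MRC 1 to 5. The ranges of the groups did not overlap. The pair Kcnj8 and Abcc9 held 27.2% to 40.3% of this sum in MCi and 2.83% to 13.9% in MRC. Without that pair the sum was 628 to 935 CPM in MCi and 438 to 556 CPM in MRC, so the groups stayed apart. The families differed in this respect. Inward rectifiers summed to 129 to 282 CPM in MCi and 22.0 to 35.8 CPM in MRC, while leak channels summed to 98.6 to 158 CPM in MCi and reached 259 and 228 CPM in MRC4 and MRC5.

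**Figure D2:**
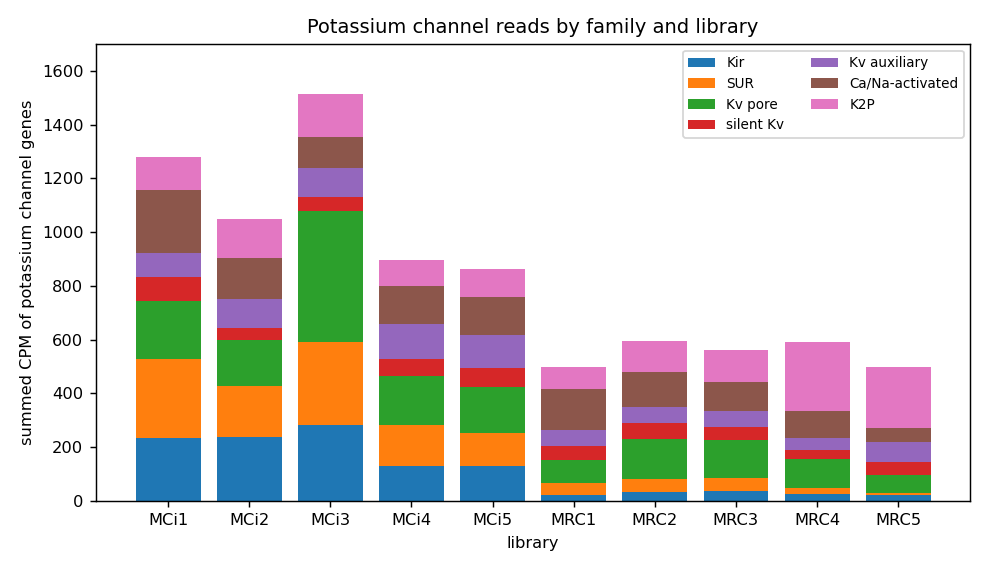
Summed CPM of the 94 potassium channel genes in each library (vertical axis), stacked by family. MCi libraries reach 863 to 1514 CPM and MRC libraries 497 to 595 CPM, and the inward rectifier and sulphonylurea receptor segments are the ones that shrink most in MRC.

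Levels per exon length placed the ATP-sensitive channel first among these genes in MCi. In the authors' deposited RPKM values, Kcnj8 averaged 74.5 ± 27.0 (SD, n = 5) and Abcc9 25.7 ± 9.71 in MCi, ranks 1 and 2 of 94, followed by Kcne4 at 15.9 ± 4.80, Kcna1 at 15.4 ± 15.8 and Kcnk2 at 14.5 ± 6.76. The means of these last 3 genes lay closer together than their spread. In MRC the highest mean was that of Kcnk5, 17.2 ± 19.5 RPKM, which rested on MRC4 and MRC5. In MRC 1 to 3 alone the highest means were those of Kcnk2 (12.1 RPKM), Kcne4 (10.2), Kcnn3 (7.94), Kcnj8 (7.89) and Kcns3 (7.85), and Kcnk5 ranked 12 with 3.14 RPKM.

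Both genes of the ATP-sensitive channel lie next to each other on chromosome 6 on the minus strand, 16248 bases apart. Kcnj8 (ENSMUSG00000030247, GRCm38 chromosome 6, 142564837 to 142571614) measured 223, 224, 269, 113 and 111 CPM across MCi 1 to 5, against 14.6, 23.6, 28.6, 12.6 and 8.94 CPM across MRC 1 to 5. The lowest MCi library exceeded the highest MRC library, and within MCi the libraries numbered 4 and 5 were the lowest. Means were 188 ± 71.8 CPM in MCi and 17.7 ± 8.16 CPM in MRC (SD, n = 5 each), a 10.6-fold difference, with a log2 fold change of -3.41 ± 0.39 (SE; adjusted p = 0.00483 by edgeR). Kcnj8 passed in each of the 22 alternative fits, with log2 fold changes of -3.66 to -3.07 and adjusted p up to 0.0273. Its log2 fold change was -3.07 without MRC4 and MRC5 (adjusted p = 0.00841 by edgeR).

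Abcc9 (ENSMUSG00000030249, chromosome 6, 142587862 to 142702315) measured 292, 187, 309, 151 and 123 CPM across MCi 1 to 5, against 44.9, 48.2, 49.8, 24.2 and 5.16 CPM across MRC 1 to 5. The groups did not overlap, but MRC5 lay far below the rest of its group. Means were 212 ± 83.7 and 34.5 ± 19.3 CPM, a 6.17-fold difference, with a log2 fold change of -2.62 ± 0.54 that did not pass (adjusted p = 0.0673 by edgeR). Without MRC5 the log2 fold change was -2.35 and passed (adjusted p = 0.0240 by edgeR), as it did without MRC4 and MRC5 together (-2.15, adjusted p = 0.0150 by edgeR) and in DESeq2 (adjusted p = 2.76e-05). Adjusted p ranged from 2.76e-05 to 0.163 over 22 alternatives. Of the 30 members tested, 3 were without overlap and higher in MCi, namely Kcnj8, Abcc9 and Kcnab1, as were 2.69% of all genes tested. The reverse held for 0 members and 1.10% of all genes. Of the genes without overlap, Kcnab1 met the read filter only through MCi.

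The deposited RPKM of Kcnj8 exceeded that of Abcc9 in all 10 libraries, 2.47- to 3.94-fold in MCi and 1.07- to 5.69-fold in MRC. The highest of these ratios came from MRC5, where 45 reads of Kcnj8 and 26 of Abcc9 were counted. The relatives of these genes, Kcnj11 and Abcc8, form the ATP-sensitive channel of pancreatic beta cells and lie side by side on chromosome 7, 4626 bases apart. Kcnj11 had 1 read over the 10 libraries and Abcc8 had 19 in MCi and 4 in MRC, too few to be tested. The summed level of 15 markers of mural cells and smooth muscle was 3706 to 5286 CPM in MCi and 1534 to 2606 CPM in MRC. Of the 13 tested only Acta2 passed, toward MCi, as did 0.363% of all genes. The 12 others did not pass, and of the 13 fitted changes 10 were below 0 and 3 above. Within MRC this sum was highest in MRC4, where Kcnj8 and Abcc9 were second lowest. Rgs5, a pericyte gene in that list, ranged over 319 to 824 CPM across MCi and 269 to 750 CPM across MRC, and the pericyte marker Higd1b had 9 reads in all. Other genes of that list differed more. Cspg4 ranged over 122 to 316 CPM across MCi and 71.2 to 164 CPM across MRC. Mcam ranged over 23.7 to 92.6 CPM across MCi and 0.478 to 26.9 CPM across MRC. Myh11, Tagln and Lmod1 were higher in MCi without overlap, while Notch3, Des and Ndufa4l2 had fitted changes above 0. Of 12 markers of PDGFRA-positive and fibroblast-like cells, all tested, 3 were higher in MCi, 0 were higher in MRC and 9 did not pass, with a median log2 fold change of -1.54. Those that passed encode secreted signalling proteins, Bmp7 (114 to 188 CPM across MCi and 8.74 to 21.0 CPM across MRC, adjusted p = 0.00106 by edgeR), Bmp5 (249 to 442 and 78.4 to 117 CPM, adjusted p = 0.00483) and Bmp3 (72.8 to 145 and 5.97 to 27.2 CPM, adjusted p = 0.0198). The matrix genes Dcn, Col1a1 and Dpt of that list had fitted changes above 0 and did not pass. The part of mural or PDGFRA-positive cell content in the difference of Kcnj8 and Abcc9 was not tested.

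**Figure D3:**
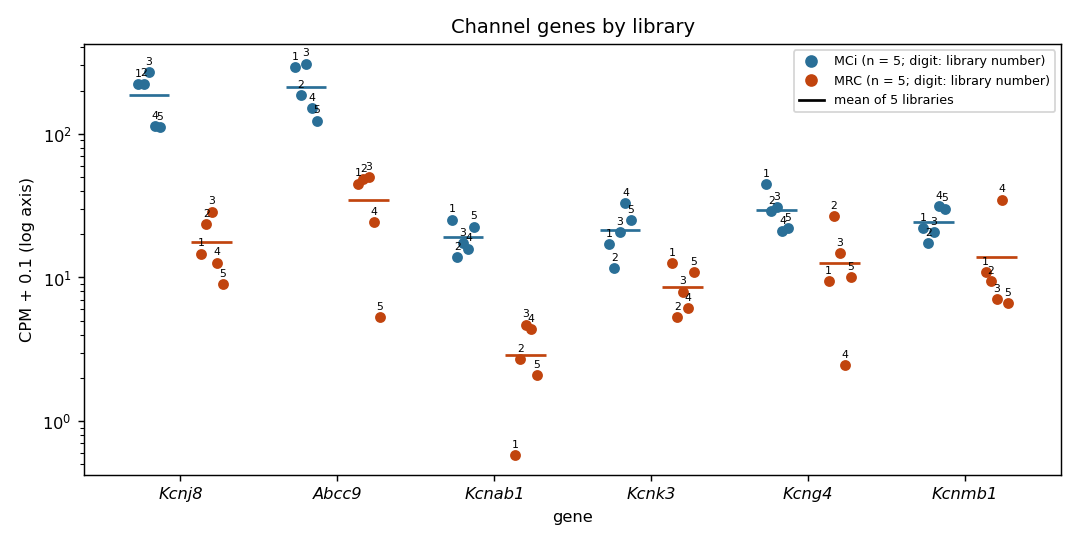
CPM plus 0.1 on a log axis for 6 channel genes in each library (digits give the library number, lines the mean of 5 libraries). All MCi points of Kcnj8, Abcc9 and Kcnab1 lie above all MRC points, and MRC4 is the high point of Kcnmb1 in MRC.

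The sequences before the starts of Kcnj8 and Abcc9 are shown because these neighbouring genes differed between the groups in the same direction. Each is the 250 bases before the transcript start given by RefSeq (GRCm38.p6), read 5′ to 3′ on the gene's minus strand, at chr6:142571615-142571864 for Kcnj8 and chr6:142702275-142702524 for Abcc9. Capitals mark the GC box, searched as GGGCGG on both strands.
Kcnj8: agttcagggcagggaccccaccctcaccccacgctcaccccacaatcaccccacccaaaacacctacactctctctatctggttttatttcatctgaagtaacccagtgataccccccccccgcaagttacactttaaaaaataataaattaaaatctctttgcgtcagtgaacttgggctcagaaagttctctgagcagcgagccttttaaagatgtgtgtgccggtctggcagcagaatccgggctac
Abcc9: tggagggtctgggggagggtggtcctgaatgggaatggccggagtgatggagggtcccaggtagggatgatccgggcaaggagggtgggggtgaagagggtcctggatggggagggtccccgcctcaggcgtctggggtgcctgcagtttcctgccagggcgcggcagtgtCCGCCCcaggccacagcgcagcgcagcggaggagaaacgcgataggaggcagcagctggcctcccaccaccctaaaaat
The windows differed in base composition, with 49.2% G or C and 6 CpG pairs in Kcnj8 and 66.8% and 12 in Abcc9. Medians over 32817 RefSeq windows of this length were 52.4% and 6. Abcc9 held 1 GC box, which begins 79 bases before the start and reads CCGCCC on the gene's strand, and Kcnj8 none, and 32.7% of all windows held at least 1. The TATA box (TATAAA, in 12.4% of windows), the RBPJ site (GTGGGAA, 5.42%), the GATA site (AGATAA, 9.99%) and the CArG box (1.47%), searched on both strands with overlaps allowed, were in neither window. Windows of this kind were found for 68 of the 94 members.

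Other inward rectifiers had few reads. Kcnj12, a strong rectifier of muscle and heart, ranged over 3.05 to 8.85 CPM across MCi and 0 to 4.57 CPM across MRC (log2 fold change -1.71 ± 0.81, adjusted p = 0.320 by edgeR). Kcnj5, a pore subunit opened by G proteins, ranged over 1.20 to 11.4 CPM across MCi and 0 to 6.16 CPM across MRC (log2 fold change -1.02 ± 0.82, adjusted p = 0.586 by edgeR). The ranges overlapped for both genes. Of the 15 inward rectifier genes, 1 was higher in MCi, 2 did not pass and 12 were under the filter, among them Kcnj2 (34 reads in MCi and 47 in MRC), Kcnj15 (25 and 42), Kcnj10 (19 and 3) and Kcnj13 (1 and 20). For Kcnj13, which lies within Gigyf2 on the other strand, 19.05% of exon reads were counted as unique.

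Kcnab1 encodes a cytoplasmic beta subunit that binds voltage-gated channels of the Kcna group and speeds their inactivation. Kcnab1 (ENSMUSG00000027827, chromosome 3, 65109384 to 65378223, plus strand) measured 25.2, 13.7, 17.2, 15.8 and 22.5 CPM across MCi 1 to 5, against 0.478, 2.59, 4.59, 4.25 and 1.99 CPM across MRC 1 to 5. The groups did not overlap, and the mean was 6.80-fold higher in MCi with a log2 fold change of -2.74 ± 0.47 (adjusted p = 0.0315 by edgeR). Kcnab1 had 2, 10, 21, 27 and 10 reads across MRC 1 to 5. It met the read filter only through MCi, where it is high, which limits its call. Of its gene reads 28.3% were intronic, and with exon and intron reads together the log2 fold change was -2.41 (adjusted p = 0.00328 by edgeR). Its call ended in 10 of 22 alternatives, among them a fit with the replicate numbers as a block and one of libraries 1 to 3 alone (adjusted p = 0.0931 by edgeR). It also ended without MCi1, MCi2, MCi3, MCi4, MCi5, MRC2, MRC3 or MRC5 (adjusted p = 0.121, 0.0815, 0.0796, 0.0805, 0.111, 0.0722, 0.0528 and 0.0724 by edgeR, within 2.69e-07 to 0.121 over 22 alternatives). The log2 fold change stayed between -2.98 and -2.41 in all of them, and it was -2.86 without MRC4 and MRC5 (adjusted p = 0.0362 by edgeR).

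Of the 8 pore subunit genes of the Kcna group, whose channels shorten action potentials and are known from nerve and glia, 3 were tested, and their differences between the groups did not pass. Kcna1 (chromosome 6, 126640397 to 126646384) measured 54.3, 51.0, 208, 28.9 and 23.6 CPM across MCi 1 to 5, against 0.478, 25.6, 26.2, 2.36 and 0.993 CPM across MRC 1 to 5. Kcna2 (chromosome 3, 107101146 to 107115005) measured 49.6, 31.3, 119, 22.7 and 28.8 CPM across MCi, against 2.87, 25.1, 17.0, 7.08 and 0.397 CPM across MRC. Kcna6 (chromosome 6, 126708329 to 126740674) measured 34.9, 20.6, 56.7, 34.2 and 29.96 CPM across MCi, against 2.87, 21.0, 14.6, 2.68 and 2.78 CPM across MRC. MCi3 was the highest library for all 3 genes, and MRC2 and MRC3 were the highest of MRC. The groups overlapped through MRC2 in each gene and through MRC3 in Kcna1. The log2 fold changes were -2.72 ± 1.10 for Kcna1, -2.26 ± 0.85 for Kcna2 and -2.02 ± 0.62 for Kcna6 (adjusted p = 0.259, 0.240 and 0.188 by edgeR).

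Kcna1 and Kcna6 are neighbours, 61945 bases apart on the same strand, and Kcna3 lies 63076 bases from Kcna2. Kcna3, with 96 reads in MCi and 10 in MRC, was under the filter, as were Kcna5 (10 and 26) and Kcna4, Kcna7 and Kcna10 with 1 to 3 reads each. Reads of Kcna6 and Kcna3 are uncertain, because genes on the opposite strand overlap them and only 6.85% and 0% of their exon reads were counted as unique. The library preparation does not mark strand, so reads of a gene and its antisense partner cannot be told apart. Without MRC4 and MRC5 the log2 fold changes were -2.06 for Kcna1, -1.74 for Kcna2 and -1.46 for Kcna6 (adjusted p = 0.575, 0.466 and 0.328 by edgeR).

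A marker of enteric glia was high in the same libraries. Sox10, a neural crest transcription factor gene, measured 34.5, 28.2, 85.4, 29.1 and 26.2 CPM across MCi 1 to 5, against 0, 12.95, 12.2, 1.26 and 2.19 CPM across MRC 1 to 5. MCi3 was the highest library, and MRC2 and MRC3 were the highest of MRC. The summed level of the 10 glial and neuronal markers was 151 to 454 CPM in MCi and 7.64 to 399 CPM in MRC, where Erbb3, also expressed by epithelium, made up 284 and 390 CPM in MRC4 and MRC5. Of the 7 markers tested 0 passed in edgeR, while 3 had an unadjusted p under 0.05, all toward MCi, where 6.09% of all genes did. Whether glial transcripts contribute to the levels of Kcna1, Kcna2 and Kcna6 was not tested.

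**Figure D4:**
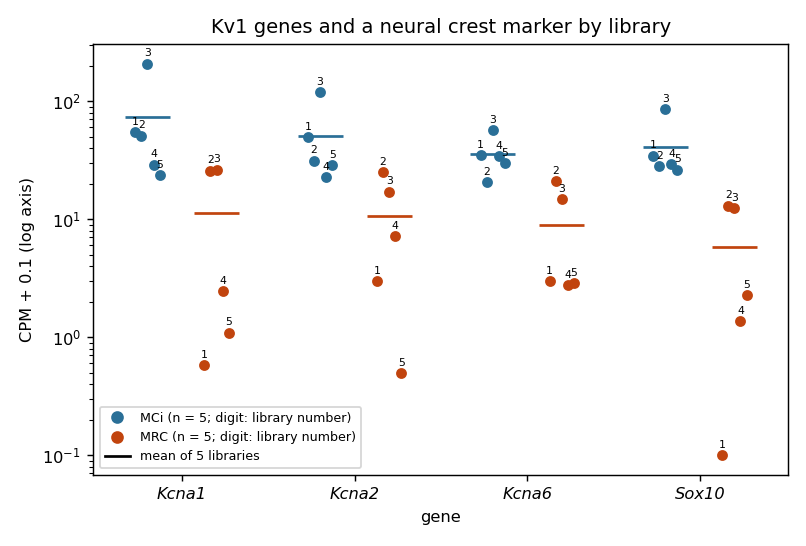
CPM plus 0.1 on a log axis for Kcna1, Kcna2 and Kcna6 beside the glial marker Sox10 in each library (digits give the library number, lines the mean of 5 libraries). MCi3 is the highest library for all 4 genes, and MRC2 and MRC3 are the highest of MRC.

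Of the 30 voltage-gated pore subunit genes 9 were tested and 0 passed in edgeR. Kcnd1 of transient currents ranged over 9.31 to 18.9 CPM across MCi and 3.97 to 16.1 CPM across MRC. Kcnh2 of the ether-a-go-go group ranged over 9.003 to 12.1 CPM across MCi and 4.66 to 18.3 CPM across MRC. Both overlapped between the groups, with log2 fold changes of -0.40 and -0.09 (adjusted p = 0.657 and 0.936 by edgeR). Below the filter were, beside those of the Kcna group, the genes Kcnq5 (71 reads in MCi and 17 in MRC), Kcnh8 (47 and 2), Kcnd3 (43 and 9), Kcnh7 (10 and 25) and Kcnd2 (5 and 25).

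Silent subunits form no channel of their own and modify voltage-gated channels that they join. Kcng4 (chromosome 8, 119623854 to 119635680) measured 44.6, 29.0, 30.9, 21.1 and 21.9 CPM across MCi 1 to 5, against 9.32, 26.7, 14.6, 2.36 and 9.93 CPM across MRC 1 to 5. Only MRC2 reached into the MCi range, and the log2 fold change was -1.23 ± 0.50 (adjusted p = 0.255 by edgeR). Kcns3 measured 18.7, 12.0, 17.2, 35.9 and 40.6 CPM across MCi, against 34.6, 19.7, 25.1, 27.4 and 37.1 CPM across MRC. The groups overlapped throughout (log2 fold change 0.20 ± 0.34, adjusted p = 0.823 by edgeR). Kcng1 ranged over 0.554 to 23.9 CPM across MCi and 0 to 10.4 CPM across MRC, and its log2 fold change of -0.78 became 0.61 without MCi1. Under the filter were Kcnf1 (40 reads in MCi and 11 in MRC) and Kcng2 (37 and 12).

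The other auxiliary subunits did not pass. Kcne4, a small membrane protein that dampens voltage-gated channels, measured 34.9, 53.0, 58.9, 35.7 and 26.7 CPM across MCi 1 to 5, against 12.9, 37.0, 39.8, 9.29 and 8.14 CPM across MRC 1 to 5. MRC2 and MRC3 fell within the MCi range, and the log2 fold change was -0.97 ± 0.47 (adjusted p = 0.340 by edgeR) and -0.48 without MRC4 and MRC5. A gene on the other strand covers Kcne4, and 3.91% of its exon reads were counted as unique, so its reads are uncertain. Kcnip3, which encodes a calcium sensor of the Kcnd channels, measured 18.7, 33.7, 26.3, 69.5 and 64.3 CPM across MCi, against 39.6, 13.7, 8.52, 14.3 and 33.4 CPM across MRC (log2 fold change -0.96 ± 0.49, adjusted p = 0.361 by edgeR). Within MCi the libraries numbered 4 and 5 were the highest for Kcnip3, as they were for other members, among them Kcns3, Kcnk3, Kcnmb1, Kcnk1 and Kcnj5. In the same libraries 6 mesothelium markers summed to 758 and 803 CPM, against 19.1 to 120 CPM in MCi 1 to 3 and 0.478 to 11.5 CPM across MRC, and their part in the Kcnip3 level was not tested. Its relative Kcnip1 ranged over 1.25 to 3.83 CPM across MCi and 0.199 to 3.11 CPM across MRC, with 69.8% of gene reads in introns. Below the filter lay Kcne3, described with the epithelial transcripts, and Kcnip2 (34 reads in MCi and 8 in MRC), Kcnab2 (32 and 24) and Kcnab3 (30 and 34).

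Among the channels opened by calcium or sodium and their beta subunits, Kcnn3 had the highest mean RPKM in MCi (10.1 ± 5.08, SD, n = 5). In this family 0 of the 5 members tested passed. Kcnn3 (chromosome 3, 89520164 to 89675132), the small-conductance channel of PDGFRA-positive cells in gut muscle, measured 193, 107, 54.8, 87.4 and 79.1 CPM across MCi 1 to 5, against 102, 98.4, 74.5, 17.2 and 5.76 CPM across MRC 1 to 5. MRC1, MRC2 and MRC3 lay within the MCi range and MRC4 and MRC5 below it. The log2 fold change was -0.81 ± 0.68 over all libraries (adjusted p = 0.607 by edgeR) and -0.18 without MRC4 and MRC5 (adjusted p = 0.892 by edgeR). Pdgfra itself was at 1161 to 2357 CPM in MCi, at 717, 934 and 780 CPM in MRC 1 to 3, and at 269 and 274 CPM in MRC4 and MRC5. Within MCi, MCi3 was highest for Pdgfra (2357 CPM) and lowest for Kcnn3 (54.8 CPM). The part of PDGFRA-positive cell content in the Kcnn3 level was not tested.

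Kcnma1 encodes the large-conductance channel and Kcnmb1 its smooth muscle beta subunit. Kcnmb1 (chromosome 11, 33963013 to 33973641) measured 21.9, 17.3, 20.6, 31.4 and 30.1 CPM across MCi 1 to 5, against 10.7, 9.32, 6.99, 34.8 and 6.56 CPM across MRC 1 to 5. All MRC libraries but MRC4 lay below MCi. The log2 fold change was -0.82 ± 0.46 over all libraries (adjusted p = 0.399 by edgeR), and it passed without MRC4 (-1.53, adjusted p = 0.0431 by edgeR) and without MRC4 and MRC5 (-1.43, adjusted p = 0.0379 by edgeR). Kcnmb1 lies inside Kcnip1 on the opposite strand and 22.4% of its exon reads were counted as unique, and with unique exon reads its log2 fold change was -0.43 (adjusted p = 0.737 by edgeR). Kcnma1 ranged over 12.0 to 23.7 CPM across MCi and 4.57 to 15.4 CPM across MRC (log2 fold change -0.70 ± 0.35, adjusted p = 0.341 by edgeR). The small-conductance gene Kcnn1 and the sodium-activated channel gene Kcnt2 had log2 fold changes of 0.86 ± 0.69 and 1.59 ± 0.88 (adjusted p = 0.588 and 0.393 by edgeR). Kcnt2 reached 14.6, 7.77 and 8.52 CPM in MRC 1 to 3 and 0.157 and 3.77 CPM in MRC4 and MRC5, and without these last libraries its log2 fold change was 2.17 (adjusted p = 0.173 by edgeR). Kcnu1 (36 reads in MCi and 33 in MRC), Kcnn2 (34 and 3), Kcnt1 (27 and 2) and Kcnmb4 (23 and 7) were under the filter.

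Leak channel subunits carry 2 pore domains, and 0 of the 5 members tested passed. Kcnk5 (chromosome 14, 20140058 to 20181782), an acid-sensitive leak channel gene of epithelia, measured 8.79, 11.7, 8.85, 9.56 and 17.5 CPM across MCi 1 to 5, against 1.43, 9.32, 24.2, 166 and 159 CPM across MRC 1 to 5. MRC4 and MRC5 lay far above all other libraries, MRC1 was the lowest of all 10, and MRC2 lay within the MCi range. The log2 fold change was 2.67 ± 1.02 over all libraries (adjusted p = 0.248 by edgeR, DESeq2 adjusted p = 0.0283) and 0.05 without MRC4 and MRC5 (adjusted p = 0.984 by edgeR).

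Kcnk3 (chromosome 5, 30588170 to 30625271), another acid-sensitive leak channel gene, had the opposite direction. It measured 16.9, 11.5, 20.6, 33.0 and 25.0 CPM across MCi 1 to 5, against 12.4, 5.18, 7.86, 5.98 and 10.7 CPM across MRC 1 to 5. Only MRC1 reached above the lowest MCi library, and the log2 fold change was -1.34 ± 0.34 (adjusted p = 0.128 by edgeR, DESeq2 adjusted p = 0.00841). Kcnk2, a mechanically gated leak channel gene, measured 77.7, 111, 95.2, 34.6 and 36.9 CPM across MCi, against 50.2, 84.2, 64.0, 53.8 and 35.4 CPM across MRC. Its groups overlapped throughout (log2 fold change -0.31 ± 0.36, adjusted p = 0.726 by edgeR). Kcnk6 and Kcnk1 had log2 fold changes of 0.59 and -0.24 (adjusted p = 0.582 and 0.918 by edgeR). Kcnk13 (117 reads in MCi and 5 in MRC) and Kcnk10 (10 and 49) were under the filter.

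The stretch before the start of Kcnk5 is shown as the counterpart to those of Kcnj8 and Abcc9. It holds the 250 bases before the RefSeq start at chr14:20181783-20182032 (GRCm38.p6, minus strand), with GC boxes in capitals.
Kcnk5: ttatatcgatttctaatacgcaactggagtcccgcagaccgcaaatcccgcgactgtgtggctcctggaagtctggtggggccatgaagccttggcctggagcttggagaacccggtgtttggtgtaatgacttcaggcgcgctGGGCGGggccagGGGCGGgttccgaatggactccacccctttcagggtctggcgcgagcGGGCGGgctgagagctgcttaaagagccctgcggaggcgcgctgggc
This window held 3 GC boxes, all read on the gene's strand and beginning 106, 94 and 47 bases before the start, with 62.8% G or C and 19 CpG pairs. None of the TATA box, RBPJ site, GATA site or CArG box, searched as above, was in it.

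Channel genes known from the transporting epithelium of the gut were high in the same libraries as Kcnk5. Kcnq1 and its partner Kcne3 form a channel of crypt cells that sustains chloride secretion, and Kcnn4 encodes the calcium-activated channel that serves the same task. Kcnq1 measured 0, 4.21, 1.20, 9.14 and 7.67 CPM across MCi 1 to 5, against 0.239, 7.77, 0.655, 44.4 and 36.2 CPM across MRC 1 to 5. Kcnn4 ranged over 0 to 4.35 CPM across MCi and measured 0, 1.30, 0, 16.1 and 26.2 CPM in MRC. Kcne3 ranged over 0 to 4.02 CPM across MCi and measured 0, 1.81, 0, 18.7 and 28.0 CPM in MRC. MRC4 and MRC5 were the highest of the 10 libraries for each of these genes. Values of every library are given here outside the naming rule and were chosen after they were seen.

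Kcnq1 did not pass (log2 fold change 1.97 ± 1.26, adjusted p = 0.478 by edgeR) and its change was -0.67 without MRC4 and MRC5 (adjusted p = 0.890 by edgeR). Kcnn4 (66 reads in MCi and 239 in MRC) and Kcne3 (65 and 267) were under the filter over all libraries. Of Kcnq1 gene reads 46.8% were intronic, and of Kcne3 exon reads 40.4% were counted as unique. Kcnk5, Kcnq1, Kcnn4 and Kcne3 together held 41.4% and 50.2% of all potassium channel CPM in MRC4 and MRC5, where the remaining 8 libraries had 0.336% to 4.43%. Without these 4 genes the summed channel level was 830 to 1502 CPM in MCi and 248 to 575 CPM in MRC. The set was put together after the values were seen, so its high share in MRC4 and MRC5 follows from that choice.

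The epithelial marker Epcam measured 0, 69.4, 0.479, 59.1 and 49.7 CPM across MCi 1 to 5, against 0.239, 23.3, 107, 910 and 861 CPM across MRC 1 to 5. The microvillus gene Vil1 was at 1413 and 1588 CPM in MRC4 and MRC5, at 2.39, 16.6 and 275 CPM in MRC 1 to 3 and at 0.718 to 69.2 CPM in MCi. Of the 13 epithelial markers tested 0 passed in edgeR, 5 had an unadjusted p under 0.05 and all 13 had a fitted change above 0. Among all genes tested, 10.6% had such a p toward MRC and 49.0% of changes were below 0. MRC4 and MRC5 were highest both in the summed epithelial markers and in these channel genes, which were grouped after their values were seen. MRC3 came next in the summed markers (4561 CPM). It had 24.2 CPM of Kcnk5, but 0 CPM of Kcnn4 and Kcne3 and 0.655 CPM of Kcnq1. The part of epithelial transcripts in the channel values was not tested.

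**Figure D5:**
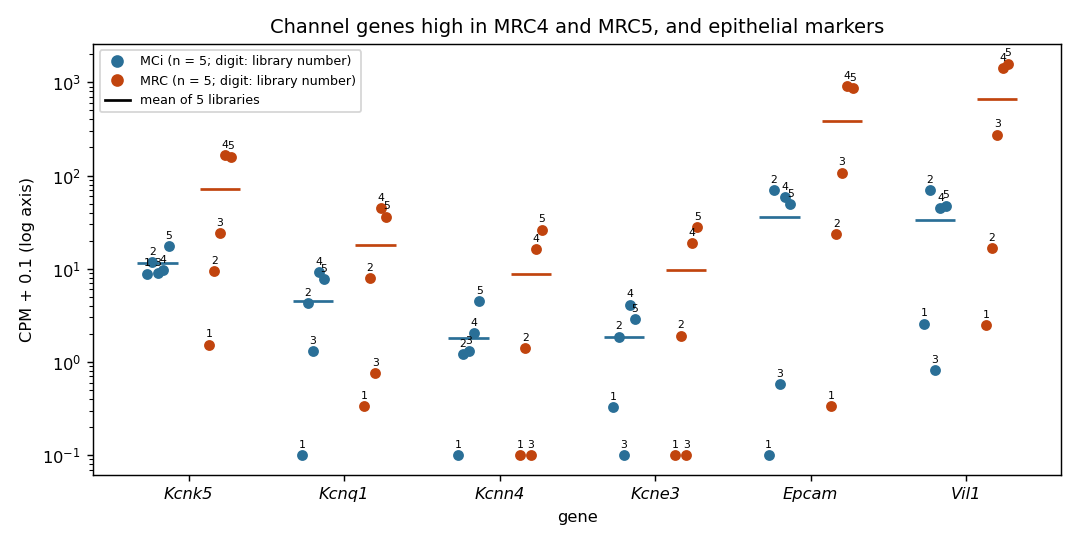
CPM plus 0.1 on a log axis for Kcnk5, Kcnq1, Kcnn4 and Kcne3 beside the epithelial markers Epcam and Vil1 in each library (digits give the library number, lines the mean of 5 libraries). MRC4 and MRC5 are the highest libraries for all 6 genes, and MRC1 is at or near the bottom of each.

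Within the library sets of unlike depth, a split added once the data had been examined, the direction of the main results held. Among the libraries numbered 1 to 3, Kcnj8 and Abcc9 were higher in MCi (log2 fold changes -3.42 and -2.46, adjusted p = 0.000636 and 0.00108 by edgeR). Of all genes, 0.565% were called higher in MCi and 0.236% higher in MRC there. Kcnab1 had a log2 fold change of -2.85 there (adjusted p = 0.0931 by edgeR). Among the libraries numbered 4 and 5, with 2 per group and 36 members tested, 12 were higher in MCi and 4 in MRC, where 10.7% and 15.5% of all genes were. The 4 were Kcnk5, Kcnq1, Kcnn4 and Kcne3, and the 12 included Kcnj8, Abcc9, Kcnab1, Kcna1, Kcna6, Kcnk3 and Kcnn3. Also counted in the 12 were Kcna3 and Kcnf1, which passed the filter there only through MCi and are no support for a difference. With the library set as a covariate, Kcnj8, Abcc9 and Kcnab1 were higher in MCi, where 1.18% of all genes were (0.52% were higher in MRC), and Abcc9 had a log2 fold change of -2.76 (adjusted p = 0.00578 by edgeR).

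Genes that act on the membrane potential together with potassium channels mostly did not pass, as held for genes in general. Of all genes tested, 0.363% were called higher in MCi and 0.0742% higher in MRC. Of 23 partner genes (sodium pump subunits, chloride cotransporters and channel-associated proteins) 17 were tested, and 1 was higher in MCi, 0 were higher in MRC and 16 did not pass, with 11 of 17 fitted changes below 0. Their median log2 fold change was -0.04, against 0.01 over all genes tested. The gene that passed, Fxyd6, encodes a small regulator of the sodium pump. It measured 251, 163, 92.6, 127 and 125 CPM across MCi 1 to 5, against 47.1, 36.5, 40.2, 30.2 and 25.4 CPM across MRC 1 to 5, without overlap (log2 fold change -2.08 ± 0.28, adjusted p = 0.0123 by edgeR).

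Of 28 calcium and chloride channel genes of contractile cells 21 were tested and 0 passed in edgeR, while 5 toward MCi and 1 toward MRC had an unadjusted p under 0.05. Among all genes tested, 6.09% and 10.6% had such a p in these directions, and 0.363% and 0.0742% passed. The median log2 fold change of the 21 channel genes was -0.15. The smallest p belonged to Cacna1g, a low-voltage calcium channel gene, which measured 50.5, 16.4, 28.2, 21.1 and 9.43 CPM across MCi 1 to 5, against 6.45, 1.55, 4.15, 5.98 and 1.79 CPM across MRC 1 to 5. The groups did not overlap (log2 fold change -2.64 ± 0.53, adjusted p = 0.0633 by edgeR). The chloride channel gene Ano1, the cation channel gene Trpc6 and the calcium-activated cation channel gene Trpm4 followed, with log2 fold changes of -2.73, -2.79 and 1.83 (adjusted p = 0.172, 0.191 and 0.196 by edgeR). Trpm4 was at 159 and 187 CPM in MRC4 and MRC5, at 31.1, 23.8 and 40.8 CPM in MRC 1 to 3 and at 17.8 to 35.5 CPM across MCi.

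Of the 94 members, 64 were under the filter: 26 with at least 20 reads over all libraries, 35 with 1 to 19 reads, and 3 with no read. Those without a read were Kcnk9, Kcnk15 and Kcnh5. Only 1 member under the filter that was not named as epithelial, Kcna3 at 8.11 CPM in MCi1, exceeded 8 CPM in any library. Without the filter 91 members could be fitted and 2 were called. Among the libraries numbered 4 and 5, with 2 per group, Kcne3, Kcnn4, Kcna3 and Kcnf1 passed the filter and were called (adjusted p = 0.00783, 0.0200, 0.0318 and 0.0462 by edgeR). In that fit 10.7% of all genes were called higher in MCi and 15.5% higher in MRC. Kcna3 and Kcnf1 had 0 reads in MRC4 and MRC5 and passed the filter only through MCi. Their calls are therefore no support for a difference, and 0% of Kcna3 exon reads were counted as unique.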

How the data were processed

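RNA was measured in 10 libraries made from total RNA with the SMART-Seq v4 kit, per the labels, a preparation without strand marking. Each library has its own deposited table of 47643 genes. Per the file headers, the authors' counts comprise total exon reads, unique exon reads, intron reads and gene reads; the deposited RPKM values equalled exon reads per exon length and total gene reads. GRCm38 is named in the submitters' processing notes, while aligner, settings and annotation source are not given in the sources used.

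Members, gene lists and alternatives were chosen with earlier results of these data known. Total exon reads were tested with edgeR 4.0.16 (R 4.3.3; TMM, robust quasi-likelihood fit, group as the only term, MRC minus MCi) over the 12127 genes kept by filterByExpr (minimum count 10, minimum total 15), with Benjamini-Hochberg adjustment over these genes and calls below 0.05. The 16517 genes listed with exon length 0 were left out. The SE is the absolute log2 fold change over the square root of F. CPM values are exon reads over the kept reads times the TMM factor, and RPKM served only for levels between genes. Reads carry no molecular identifiers, so the 3-read floor covers counting error only. Values of every library are given for tested members with p under 0.05 or a mean of at least 20 CPM, and members under the filter are named from 20 reads. Single marker genes and library values of Trpm4, Ano1, Kcnn4, Kcne3 and Kcnq1 were picked after their values were seen. So was the summed set of Kcnk5, Kcnq1, Kcnn4 and Kcne3. Partner genes are named if past the threshold, otherwise the 4 with the smallest p. One listed leukocyte marker was not analysed here, and some genes that the rule names are not reported here, though counts and sums include them. The summed level of 8 leukocyte markers was 18.9 to 40.1 CPM in MCi and 9.60 to 44.5 CPM in MRC, of 7 endothelium markers 18.8 to 35.1 and 12.3 to 62.9 CPM, of 6 mesothelium markers 19.1 to 803 and 0.478 to 11.5 CPM, of 4 markers of interstitial cells of Cajal 349 to 736 and 180 to 348 CPM, and of 12 markers of PDGFRA-positive cells and fibroblasts 15564 to 28458 and 8724 to 44074 CPM. In these lists, 0, 0, 2, 0 and 3 genes were higher in MCi and 0 in MRC, where 0.363% and 0.0742% of all genes tested were.

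Alternatives were a DESeq2 1.42.0 fit, edgeR with DESeq2 size factors or with upper-quartile scaling, other filters, the replicate number as a block, unique exon reads, gene reads, and leaving out single libraries or MRC4 and MRC5; sets by library number were added after the data were seen. The procedure was tested on simulated counts. Python 3.11.15, pandas 2.3.3, numpy 2.4.6 and matplotlib 3.10.9 were used.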

Additional observations from a re-analysis of the deposited data

Results flagged for a closer look

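Among the 30 genes tested, 5 of 60 groups of 5 libraries had a library far from the others (gap over range above Dixon's critical value of 0.71), where chance flags about 1 in 20 groups, or 3. In MCi, MCi3 was highest for Kcna1 at 208 CPM (23.6 to 54.3 CPM in the other 4) and for Kcna2 at 119 CPM (22.7 to 49.6 CPM). MCi3 also stood out for Kcnt2 at 6.7 CPM (0.933 to 1.58 CPM in the others). Kcng1 reached 23.9 CPM in MCi1 and 0.554 to 4.04 CPM in the other MCi libraries. In MRC, Kcnmb1 was at 34.8 CPM in MRC4 and at 6.56 to 10.7 CPM in the others.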

How the results depend on the processing

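The call of Kcnj8 held in all 22 alternatives, and 20 of the 30 members kept their direction in every alternative that could be fitted. Member calls higher in MCi numbered 2 over all libraries, 7 in DESeq2, 4 without MRC4 and MRC5, 12 in libraries 4 and 5 alone, and 1 to 3 when 1 library was left out. Calls higher in MRC numbered 0, 1, 0, 4 and 0 in the same order. The 12 calls in libraries 4 and 5 alone included Kcna3 and Kcnf1, which passed the filter there only through MCi. Genes called over the whole table were 9 higher in MRC and 44 in MCi in the main analysis, 550 and 301 in DESeq2, 47 and 81 without MRC4 and MRC5, 28 and 67 in libraries 1 to 3 alone, 2053 and 1407 in libraries 4 and 5 alone, 63 and 143 with the library set as a covariate, and 2 to 10 and 14 to 41 when 1 library was left out. The cause of these shifts was not tested.

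With the replicate number as a block, 15 genes were higher in MRC and 34 in MCi, and the members called were Abcc9 (adjusted p = 0.0351) and Kcnj8, while Kcnab1 had an adjusted p of 0.109. The labels do not say whether equal numbers pair the samples. Same-numbered libraries had correlations of 0.558, -0.254, 0.0624, 0.346 and 0.485 in their deviations from the group means, and only the libraries numbered 1 and 5 correlated best with their own number. These values cannot decide whether some numbers share an animal or a batch.

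The log2 fold changes given next, which changed sign, belonged to genes that did not pass. When 1 library was left out, values ranged from -0.79 to 0.10 for Kcnk1, -1.51 to 0.61 for Kcng1 and -0.43 to 0.0819 for Kcnh2. Without MRC4 and MRC5 they were 0.0229 for Kcnd1 and -0.67 for Kcnq1. In libraries 1 to 3 alone the value was 0.0507 for Kcnd1. In libraries 4 and 5 alone they were 0.26 for Kcnk2, -0.32 for Kcns3 and 0.0919 for Kcnh2, and with gene reads 0.0747 for Kcnip1. Over all libraries 64 members were under the filter. Without it 91 were fitted and 2 called.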
